A study of Homo sapiens with 18 samples.

Results

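Polycomb repressive complex 2 (PRC2) is the enzyme complex that methylates a lysine on the tail of histone H3, a mark found on silenced developmental genes. Its transcripts were followed in G401 cells, a malignant rhabdoid tumour line, through the 10 listed subunit genes among the 55765 gene symbols of the table. The genes were listed by name, with no threshold on a measured value, and the list was drawn up with earlier results of these data known. They comprise 5 core subunits (EZH2, EZH1, SUZ12, EED and RBBP7), 3 accessory subunits of the form called PRC2.1 (MTF2, PHF1 and PHF19) and 2 of the form called PRC2.2 (JARID2 and AEBP2). All 10 had a mean normalized count above 10 over the 18 libraries, as did 16154 genes in all, which were tested together.

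EZH2 and EZH1 are the alternative catalytic subunits, and SUZ12 and EED hold the complex together and are needed for its activity. RBBP7 is a histone chaperone shared with other chromatin complexes. MTF2, PHF1 and PHF19 are Polycomb-like proteins that bind DNA and chromatin, whereas JARID2 and AEBP2 join SUZ12 in a separate assembly. EZH2 is also known as a target of E2F transcription factors, which RB1 restrains, and its level is higher in dividing cells than in resting ones.

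Messenger RNA was sequenced from 6 groups of 3 biological replicates, 18 libraries in all. A control derivative of G401 in which the safe harbour locus AAVS1 was targeted (WT) and the RB1del clones E1 and F2, both edited with CRISPR/Cas9 at each copy of RB1, received tazemetostat or the solvent DMSO for 11 days. Tazemetostat inhibits the enzymatic activity of EZH2 and was given at 10 µM. Each clone descends from 1 edited cell line isolate, so a difference between WT and a clone cannot be told apart from a difference between isolates, and the comparisons of E1 and F2 with WT share their WT libraries. Values are normalized counts, meaning reads divided by a size factor for each library, and errors are SD over n = 3 libraries unless stated.

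The targeted gene was lower in both clones. With DMSO RB1 averaged 2694 ± 132 normalized counts in the WT cultures, and 648 ± 138 (E1) and 839 ± 30.5 (F2) in the clones. With tazemetostat it averaged 2474 ± 157, 977 ± 59.0 and 937 ± 6.66 in the same order. SMARCB1, whose loss defines rhabdoid tumours, had 0 reads in each of the 18 libraries, where up to 3 reads could be missed, and the mesenchymal gene VIM had group means of 29546 to 66500 normalized counts. The summed level of 5 markers of other cells (PTPRC and CD3E for blood lineages, CD68 for macrophages, ALB for liver and EPCAM for epithelium) ran from 13.4 to 41.9 over all libraries. Among them EPCAM fell with tazemetostat in E1 and F2 and CD68 rose in E1, each at mean levels of 3.35 to 17.8. The part of such cells in the results was not tested. Depth ranged from 25709489 to 39314860 reads per library.

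Promoter sequences of 4 members are shown because their transcripts moved most with tazemetostat in WT or differed most between lines. The windows run from 250 bases before to 50 bases after the annotated start, come from RefSeq on GRCh38.p14, and were searched on both strands. Capitals mark the E2F site letters TTTCGCGC or TTTGGCGC, the cell cycle homology region TTTGAA and the CCAAT box CCAAT, or their reverse complements. EZH2 (start 1, chr7:148884242-148884541, minus strand) held 1 E2F match at window base 252 and 4 CCAAT boxes. PHF19 (start 1, chr9:120877139-120877438, minus strand), EED (chr11:86244503-86244802, plus strand) and JARID2 (start 1, chr6:15245819-15246118, plus strand) each held 1 CCAAT box and none of the other searched letters.
EZH2 start 1: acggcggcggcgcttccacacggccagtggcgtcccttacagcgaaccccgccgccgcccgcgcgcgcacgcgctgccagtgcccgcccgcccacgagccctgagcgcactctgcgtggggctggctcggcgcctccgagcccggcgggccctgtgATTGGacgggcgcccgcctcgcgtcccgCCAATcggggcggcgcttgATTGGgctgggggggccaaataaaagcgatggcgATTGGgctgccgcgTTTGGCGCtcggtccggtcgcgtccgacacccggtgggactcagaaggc
PHF19 start 1: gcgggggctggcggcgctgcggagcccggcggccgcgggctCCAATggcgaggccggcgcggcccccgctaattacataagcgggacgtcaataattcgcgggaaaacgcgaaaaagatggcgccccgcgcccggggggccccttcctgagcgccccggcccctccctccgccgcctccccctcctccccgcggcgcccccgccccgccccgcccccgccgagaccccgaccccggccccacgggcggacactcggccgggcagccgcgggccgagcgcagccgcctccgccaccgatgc
EED: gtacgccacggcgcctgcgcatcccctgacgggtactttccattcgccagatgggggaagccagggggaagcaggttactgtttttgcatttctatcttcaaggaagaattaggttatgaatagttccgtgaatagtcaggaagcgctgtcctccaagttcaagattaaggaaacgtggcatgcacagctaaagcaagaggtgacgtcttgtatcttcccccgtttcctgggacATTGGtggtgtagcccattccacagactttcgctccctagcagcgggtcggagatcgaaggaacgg
JARID2 start 1: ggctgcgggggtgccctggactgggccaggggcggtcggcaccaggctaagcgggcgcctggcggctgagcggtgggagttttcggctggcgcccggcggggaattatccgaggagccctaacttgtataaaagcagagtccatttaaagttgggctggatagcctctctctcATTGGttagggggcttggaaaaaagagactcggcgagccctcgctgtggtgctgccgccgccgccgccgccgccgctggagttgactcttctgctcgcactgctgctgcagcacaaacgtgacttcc

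All 10 members matched an entry, with 14 windows between them. The searched E2F letters were found in 1 member, EZH2, against 1.15% of all 35116 promoters of the same length. Other forms of an E2F site were not searched, so a window without these letters may still hold one. The cell cycle homology letters were found in 1 member, SUZ12, against 15.2% of promoters. CCAAT boxes were found in 6 members (EZH2, SUZ12, EED, RBBP7, PHF19 and JARID2) against 34.6%, a share counted by window and not by gene. The members' windows had a median GC content of 73.8%, compared with 58.7% over all promoters. The matches describe letters in these windows and do not show binding.

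EZH2, the target of the drug, fell with tazemetostat in WT to 35.4% of its DMSO level, and remained far closer to its DMSO level in both RB1del clones. In WT with DMSO the 3 libraries held 2560.1, 2492 and 2383 normalized counts, and with tazemetostat 916, 880.1 and 832. In E1 they held 2944, 3011 and 3579 with DMSO and 2916, 3023 and 3028 with tazemetostat. In F2 they held 3373, 3161 and 3088 with DMSO and 2717, 2599.9 and 2632 with tazemetostat. The WT tazemetostat libraries were thus the lowest of all 18, the 2 groups of F2 did not overlap, and those of E1 did. In WT the log2 change was -1.50 ± 0.07 (SE; limma, adjusted p 6.7e-13). It was -0.08 ± 0.07 for E1 (adjusted p 0.34) and -0.27 ± 0.07 for F2 (adjusted p 0.0022). In RNA from whole cultures, fewer cells with a transcript and less transcript per cell cannot be told apart.

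**Figure D1:**
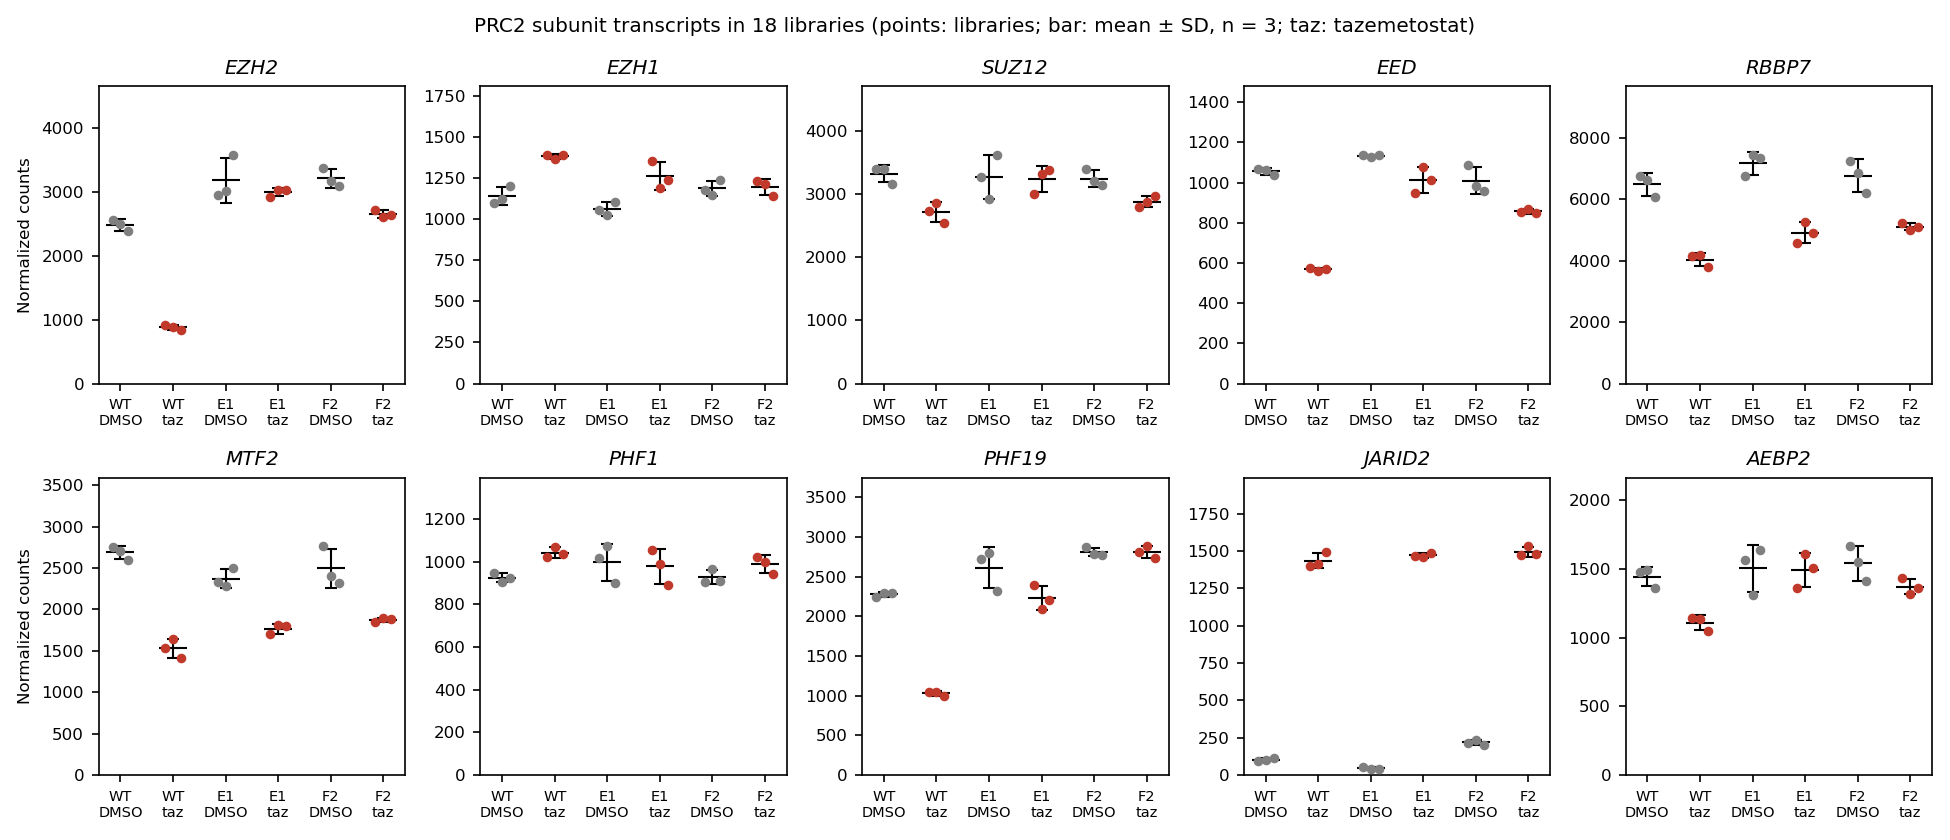
Normalized counts of the 10 PRC2 subunit transcripts in each library (points; grey for DMSO, red for tazemetostat), with mean and SD (bars, n = 3) for each line and treatment; every vertical axis starts at 0. EZH2 with tazemetostat lies at 832 to 916 in WT and at 2599.9 to 3028 in the clones, whereas JARID2 lies at 37.6 to 238 in all DMSO libraries and at 1398 to 1533 in all tazemetostat libraries.

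EZH2 was already higher in the clones without the drug. In DMSO the means of WT, E1 and F2 were 2478 ± 89.4, 3178 ± 349 and 3207 ± 148, and no clone library overlapped with WT. The log2 difference from WT was 0.35 ± 0.07 (SE; limma adjusted p 0.00079) in E1 and 0.37 ± 0.07 (adjusted p 7e-04) in F2. With only the compared groups in the fit, the value in E1 had an adjusted p of 0.066. Under tazemetostat E1 was above WT by 1.77 and F2 by 1.60, or 3.41 and 3.02 times the WT level. The order of the group means ran from F2 DMSO over E1 DMSO and E1 tazemetostat, whose libraries overlapped between neighbours, to F2 tazemetostat, WT DMSO and WT tazemetostat, which did not.

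The response of EZH2 itself differed between lines. The log2 change in E1 minus that in WT was 1.42 ± 0.10 (SE; 95% confidence interval from 1.21; limma adjusted p 5.3e-09), and the value for F2 was 1.22 ± 0.10 (from 1.02; adjusted p 4.7e-08). Of all tested genes 10% were past 2-fold and an adjusted p under 0.05 in the response difference of E1 and 7.48% in that of F2. Members past both limits numbered 2 in E1 (EZH2 and JARID2) and 3 in F2 (EZH2, PHF19 and JARID2).

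EZH1, the other catalytic subunit, moved little and in the opposite direction. Its libraries held 1097, 1122 and 1202 normalized counts in untreated WT cells and 1393, 1366 and 1392 in treated ones. In E1 they held 1056, 1023 and 1106 with DMSO and 1354, 1189.6 and 1241 with tazemetostat, and in F2 all 6 lay between 1142 and 1239. Treated libraries lay above untreated ones in WT and E1 and were mixed with them in F2. The log2 changes of WT, E1 and F2 were 0.28, 0.25 and 0.01, each ± 0.06 (SE), with limma adjusted p of 8e-04, 0.0034 and 0.91. Scaling every library to the same total moved the median log2 change of all tested genes in WT from 0.03 to -0.13, and EZH1 then changed by 0.13 (adjusted p 0.12). With only the compared groups in the fit, the change in E1 had an adjusted p of 0.071.

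Divided by the summed length of each gene's exons, EZH1 made up 23.0% ± 1.49 of the catalytic transcripts in WT with DMSO and 50.6% ± 1.24 with tazemetostat. The share went from 17.8% ± 1.10 to 21.5% ± 1.47 in E1 and from 19.4% ± 1.12 to 22.6% ± 0.645 in F2. Treated shares were above untreated ones in every line without overlap. The WT treated cells were the only group in which both transcripts were about equal on this scale. In normalized counts EZH1 averaged 1384 and EZH2 876 there, so the near equality depends on the exon lengths used. Those lengths may differ from the annotation used in the counting, which is not given. The log2 ratio of EZH2 to EZH1 with tazemetostat minus that with DMSO was -1.78 (WT), -0.33 (E1) and -0.28 (F2; exact two-sided permutation test, p = 0.1 each, the smallest that 3 against 3 libraries allow).

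**Figure D2:**
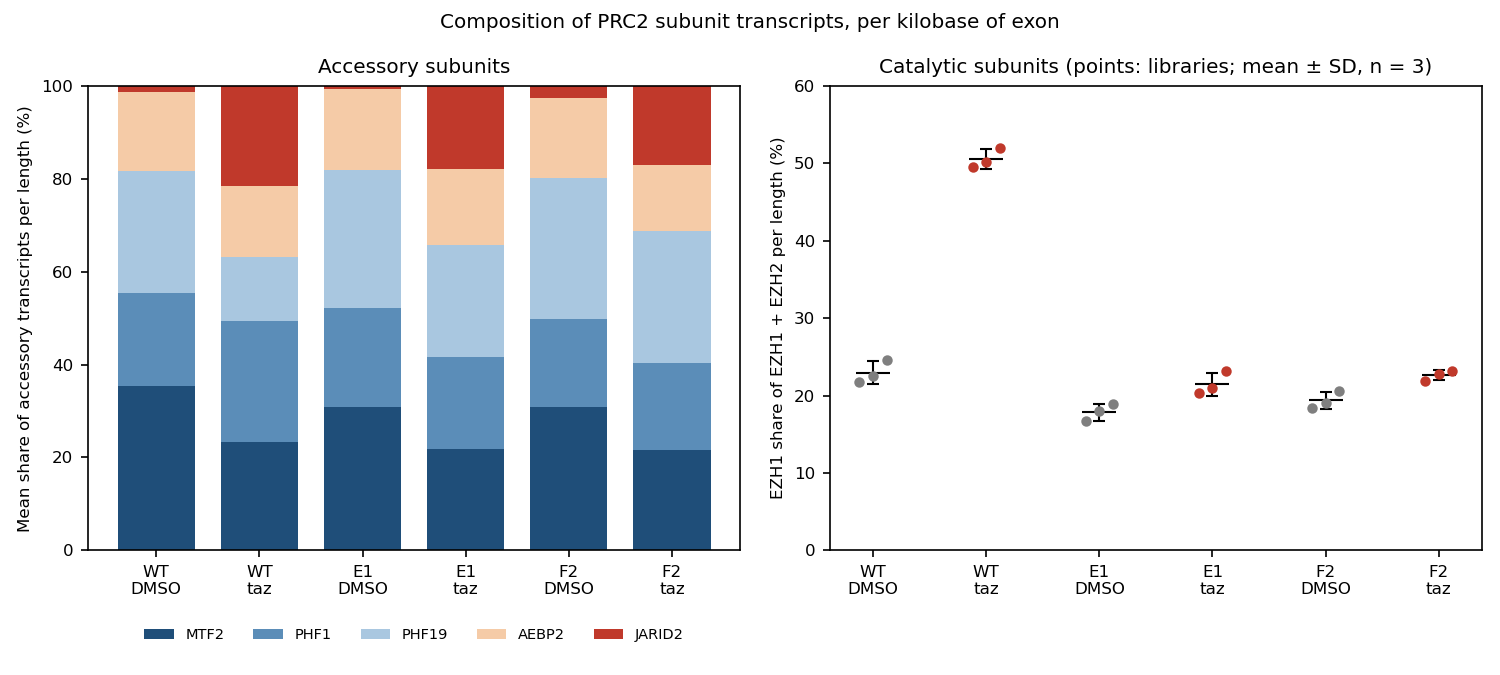
Left, mean share (%) of each accessory subunit among the 5 accessory transcripts per kilobase of exon, by line and treatment (stacked to 100); right, share (%) of EZH1 among EZH1 and EZH2 per kilobase, with libraries as points and mean and SD as bars (n = 3). JARID2 makes up 0.576% to 2.65% in DMSO and 16.95% to 21.5% with tazemetostat, and the EZH1 share reaches 50.6% in WT with tazemetostat against at most 23.0% in the other groups.

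Of the scaffold subunits, EED fell in all 3 lines and SUZ12 in WT. EED, which reads the methyl mark, held 1066, 1062 and 1037 normalized counts in untreated WT cells and 575, 562 and 568 in treated ones, so that the groups were far apart. In E1 it held 1139, 1128.5 and 1135 with DMSO and 948, 1078 and 1014 with tazemetostat, and in F2 1088, 983 and 957 against 851, 869 and 849. Treated libraries were below untreated ones in all 3 lines. The log2 changes of WT, E1 and F2 were -0.89, -0.16 and -0.23, each ± 0.06 (SE), with limma adjusted p of 4.2e-10, 0.039 and 0.0041. In E1 the pass was lost in 5 of 6 fits without 1 library, with adjusted p of 0.052 to 0.17, and kept only without E1 tazemetostat replicate 2. The replicate number as a block gave an adjusted p of 0.051 there. It was 0.21 with only the compared groups in the fit and 0.066 with no filter on low values.

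SUZ12, which joins the enzyme to the accessory subunits, averaged 3329 ± 136 normalized counts in untreated and 2721 ± 162 in treated WT cells. The log2 change was -0.29 ± 0.07 (SE) at an adjusted p of 0.002 (limma). It averaged 3277 ± 350 and 3238 ± 207 in E1 and 3251 ± 130 and 2883 ± 89.4 in F2, with log2 changes of -0.01 (adjusted p 0.90) and -0.17 (adjusted p 0.057). The libraries overlapped in E1, and in F2 all treated ones lay below the untreated ones. In F2 the change passed with TMM scaling (adjusted p 0.03), with equal totals (0.014) and with only the compared groups fitted (0.017). SUZ12 shares sequence with its copy SUZ12P, which was lower with tazemetostat in WT by -0.67 on the log2 scale, and reads could be split between them. The log2 change of SUZ12 in WT ran from -0.443 to -0.245 over 17 alternatives (adjusted p of at most 0.014 by limma, edgeR or DESeq2). They included a fit with the reads of SUZ12P added, chosen after seeing the data. The log2 ratio of EED to SUZ12 with tazemetostat minus that with DMSO was -0.60 in WT, without overlap, against -0.15 (E1) and -0.06 (F2), where the treatments overlapped (exact two-sided permutation test, p = 0.1, 0.3 and 0.2). Among the members SUZ12 and PHF1 had the smallest ratios of highest to lowest group mean, 1.22 and 1.13.

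RBBP7 was the most abundant member and fell in all 3 lines. It averaged 6479 ± 374 normalized counts in untreated and 4033 ± 222 in treated WT cells, 7174 ± 375 and 4909 ± 340 (E1), and 6765 ± 531 and 5104 ± 121 (F2) in the clones. The 2 treatments did not overlap in any line. The log2 changes were -0.68, -0.55 and -0.40, with limma adjusted p of at most 8.7e-05. The response in E1 differed from that in WT by 0.14 ± 0.10 (SE; 95% interval from -0.07 to 0.34; adjusted p 0.31), which did not pass. The fall in F2 was smaller than that in WT by 0.28 ± 0.10 (0.07 to 0.49; adjusted p 0.045), a pass that was lost in 10 of 12 fits without 1 library.

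The Polycomb-like subunits of PRC2.1 divided into 3 patterns. PHF19 resembled EZH2. In WT its libraries held 2241, 2293 and 2291 normalized counts with DMSO and 1050.5, 1042 and 996 with tazemetostat. In E1 they held 2720.0, 2799 and 2322 with DMSO and 2390.2, 2096 and 2201 with tazemetostat, and in F2 all 6 lay between 2736 and 2883. Treated WT libraries lay far below untreated ones, whereas the treatments overlapped in both clones. The log2 changes of WT, E1 and F2 were -1.14, -0.23 and -0.00, each ± 0.07 (SE), with limma adjusted p of 2.4e-11, 0.0088 and 1. In E1 the adjusted p was 0.05 without E1 tazemetostat replicate 2 and 0.12 with only the compared groups in the fit. The response differed from WT by 0.92 ± 0.09 in E1 (adjusted p 6.5e-07) and by 1.14 ± 0.09 in F2 (adjusted p 7.8e-08).

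MTF2 fell in all 3 lines, and most in WT. It averaged 2686 ± 77.8 normalized counts in untreated and 1530.5 ± 115 in treated WT cells, 2370.2 ± 118 and 1767 ± 61.1 (E1), and 2495 ± 235 and 1873 ± 25.1 (F2) in the clones. No treated library overlapped with an untreated one of its line. The log2 changes were -0.81, -0.42 and -0.41 (limma, adjusted p of at most 6.3e-05), and the response differed from WT by 0.39 in E1 (adjusted p 0.0046) and 0.40 in F2 (adjusted p 0.0048). PHF1 averaged 926 ± 22.4 with DMSO and 1044 ± 25.0 with tazemetostat in WT, and between 928 and 998 in the clones. Its log2 change of 0.17 in WT had an adjusted p of 0.049, which rose to between 0.063 and 0.13 when any 1 of the 6 libraries was left out. With equal totals it was 0.02 (adjusted p 0.82), and in E1 and F2 it was -0.03 and 0.09 (adjusted p 0.80 and 0.32).

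**Figure D3:**
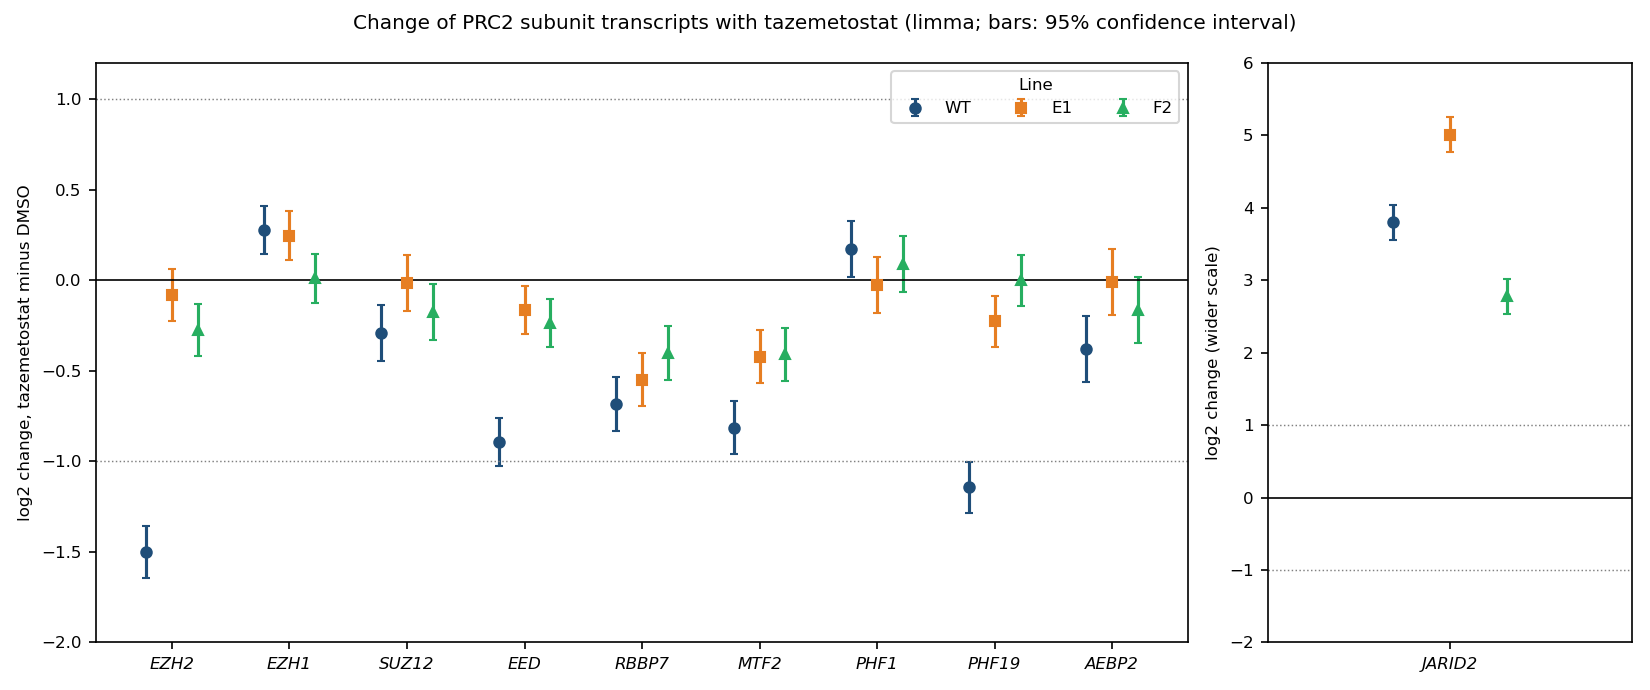
Log2 change with tazemetostat (limma; points, with 95% confidence intervals) of each subunit transcript in WT, E1 and F2; dotted lines mark 2-fold, and JARID2 has its own wider axis. EZH2, EED, MTF2 and PHF19 lie lower in WT (-1.50, -0.89, -0.81 and -1.14) than in either clone. SUZ12, RBBP7 and AEBP2 do so by smaller margins, while JARID2 lies above 2.5 in each line.

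JARID2, a DNA-binding subunit that helps bring PRC2 to its targets, was the member that rose most. Its libraries held 94.3, 101 and 112 normalized counts in untreated WT cells and 1398, 1415 and 1495 in treated ones. In E1 they held 56.3, 37.6 and 41.9 with DMSO and 1464, 1459 and 1491 with tazemetostat. In F2 they held 217, 238 and 199 with DMSO and 1471, 1533 and 1481 with tazemetostat. The 9 treated libraries lay together at 1398 to 1533 whatever the line, while the untreated groups were separate, with E1 lowest and F2 highest. The treated mean of JARID2 was 14.04 times the DMSO mean for WT, 32.5 times for E1 and 6.86 times for F2. The log2 changes were 3.80, 5.01 and 2.78, each ± 0.12 (SE; limma adjusted p of at most 1.7e-13).

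The lines differed in JARID2 before treatment and not detectably after it. In DMSO the log2 difference from WT was -1.18 in E1 (limma adjusted p 4.1e-07) and 1.08 in F2 (adjusted p 1.9e-06), and E1 was below F2 by -2.26 (adjusted p 2.4e-11). JARID2 was the only member past 2-fold and the adjusted p limit in these 3 comparisons, in which 5.04%, 2.98% and 7.56% of all tested genes were. Under tazemetostat the differences were 0.04, 0.06 and -0.02 in the same order, each ± 0.12 (SE), with adjusted p of 0.82, 0.69 and 0.90. The response in E1 exceeded that in WT by 1.21 (adjusted p 1.5e-05), and that in F2 was lower by -1.03 (adjusted p 0.00012). The value for F2 was -0.97 without WT DMSO replicate 1, -0.996 without WT tazemetostat replicate 3 and -0.96 without F2 DMSO replicate 2, each just under 2-fold with adjusted p of at most 0.00057. With equal totals it was -0.90.

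AEBP2, a zinc finger subunit of the same PRC2.2 assembly, did not follow JARID2. It averaged 1443 ± 70.7 normalized counts in untreated and 1109 ± 54.0 in treated WT cells. The log2 change was -0.38 ± 0.09 (SE) at an adjusted p of 0.00086 (limma). In E1 and F2 the log2 changes were -0.01 (adjusted p 0.94) and -0.17 (adjusted p 0.12). Per kilobase of exon, JARID2 rose from 1.32% ± 0.135 to 21.5% ± 1.22 of the 5 accessory transcripts in WT, from 0.576% ± 0.115 to 17.8% ± 0.403 in E1 and from 2.65% ± 0.216 to 16.95% ± 0.336 in F2, with no overlap. The share of MTF2 went from 35.3% to 23.3%, 30.8% to 21.8% and 30.8% to 21.6% in these lines.

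Counted together, the members past 2-fold and an adjusted p under 0.05 with tazemetostat numbered 3 of 10 for WT, 1 for E1 and 1 for F2. The shares of all tested genes past these limits were 21.3%, 15.1% and 17%. Without the fold limit 10 members passed for WT, 6 for E1 and 5 for F2, against 64.2%, 46.8% and 52.2% of all genes, and 7, 4 and 4 of them were lower, against 29.4%, 19.7% and 23.2%. The median log2 changes of the members were -0.53, -0.06 and -0.17, beside 0.03, 0.03 and 0.02 over all tested genes. Under tazemetostat EZH2 and PHF19 were past 2-fold above WT in each clone, where 11.3% (E1) and 12.3% (F2) of genes passed in either direction and 5.4% and 7.31% were higher. The clones differed from each other under tazemetostat in 0 members past 2-fold (6.82% of genes; 0 by edgeR and DESeq2 too), and 2 members passed at the adjusted p alone.

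At the adjusted p alone, 3 members passed for E1 and 3 for F2 against WT in DMSO, where 23.2% and 20.2% of all genes did. Under tazemetostat 7 and 7 passed, beside 51.8% and 53.1% of genes. Between the clones 2 members passed in DMSO and 2 under tazemetostat, beside 37.1% and 34.5%. In the response differences of E1 and F2 from WT 7 and 7 passed, beside 35.4% and 26.9%. Several of these passes hung on single libraries. In the E1 difference, fits without 1 library lost SUZ12 in 8 of 12 and AEBP2 in 6 of 12. In the F2 difference they lost EZH1 in 7 of 12 and RBBP7 in 10 of 12. Under tazemetostat EED was higher and PHF19 lower in E1 than in F2, by 0.24 and -0.34 on the log2 scale (adjusted p 0.0065 and 0.00078).

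Transcripts of dividing cells fell in WT along with EZH2, EED and PHF19. Of 35 E2F-regulated G1/S genes, EZH2 not among them, 27 were past 2-fold lower with tazemetostat for WT, 1 for E1 and 1 for F2, where 6.77%, 3.78% and 3.71% of all genes were. Without the fold limit 34, 16 and 21 of the 35 were lower, beside the 29.4%, 19.7% and 23.2% of all genes given above. Their median log2 changes were -1.36, -0.21 and -0.30. Of 20 mitotic genes the numbers were 15, 0 and 0, with medians of -1.15, 0.01 and -0.06. Without the fold limit 6 of the mitotic genes in E1 and 8 in F2 passed the limma adjusted p, in both directions, beside 46.8% and 52.2% of all genes. In WT 10 of the 35 E2F-list genes fell further than EZH2. The log2 ratio of EZH2 to the median of the E2F list differed with treatment by -0.37 (WT), 0.01 (E1) and 0.22 (F2). That of PHF19 differed by -0.01, -0.14 and 0.49, and that of EED by 0.24, -0.08 and 0.26. Each of these ratios had p = 0.1 or more (exact two-sided permutation test, the smallest possible being 0.1). The part of cell division in the subunit changes was not tested.

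**Figure D4:**
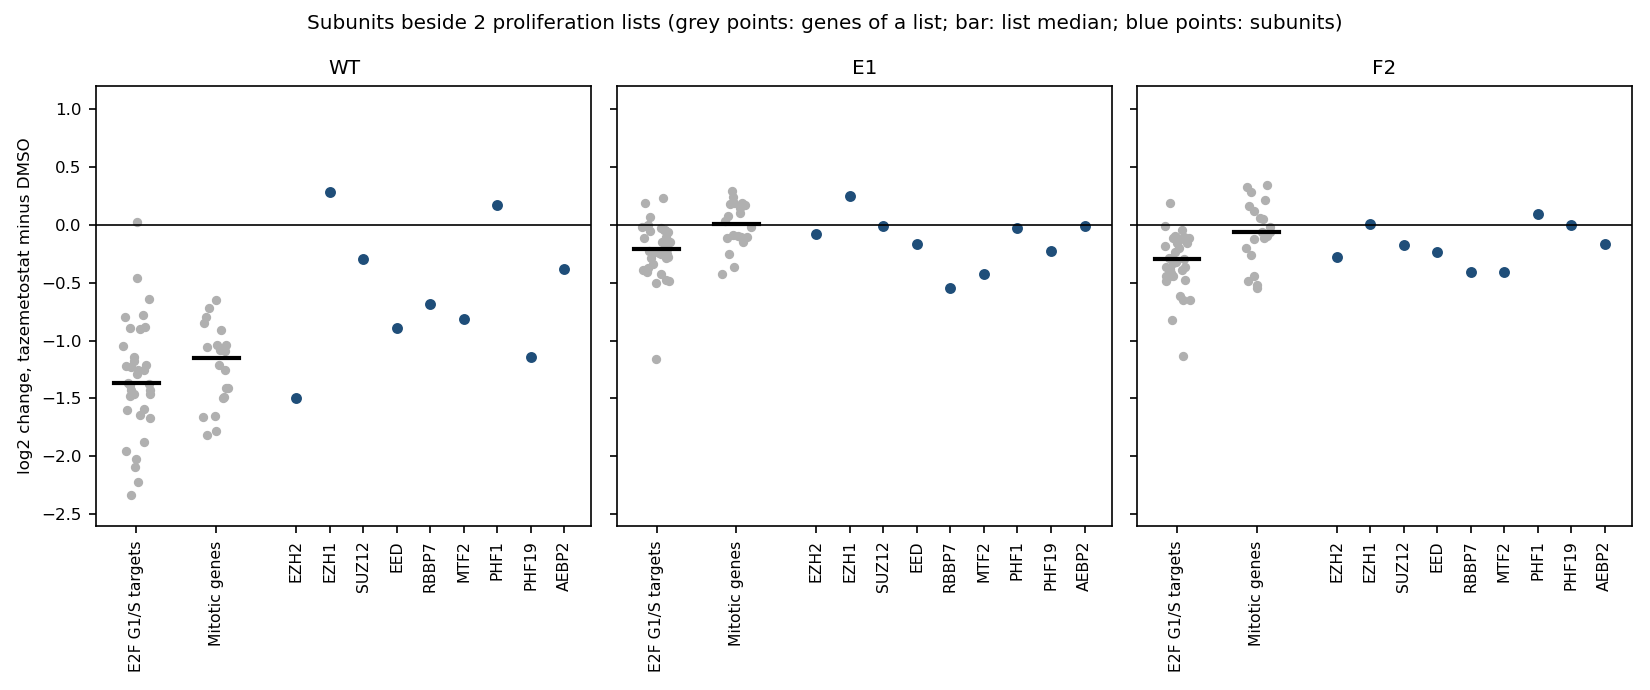
Log2 change with tazemetostat of the genes in the E2F G1/S and mitotic lists (grey points, with list medians as bars) and of 9 subunits (blue points; JARID2 is left out because it lies off the scale) in WT, E1 and F2. The list medians lie at -1.36 and -1.15 in WT and between -0.30 and 0.01 in the clones, and EZH2 lies at -1.50, -0.08 and -0.27.

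The genes whose pattern over the 18 libraries was most like that of EZH2, by Pearson r of log2 values among 12983 genes, were USP1, POLD3, NASP, PRIM1 and DEK (r of 0.995 to 0.992). For EED they were RQCD1, NUP54, DERA, GMPS and MSH6 (0.991 to 0.981), for SUZ12 SMARCA5, CAND1, MTMR12, ERBB2IP and ANKRD28 (0.959 to 0.933), and for EZH1 GPR155, MT-ND5, SH3PXD2A, LMO7 and INPP4A (0.916 to 0.895). Among the members EZH2 was closest to PHF19 (r = 0.943) and EED (0.931), and EZH1 ran opposite to RBBP7 (-0.878). These values describe 6 groups of 3 libraries and are dominated by the difference between groups.

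Of the other PRC2-associated genes, 4 of the names searched were tested. RBBP4, the close relative of RBBP7, differed with tazemetostat by -0.65, -0.46 and -0.70 on the log2 scale in WT, E1 and F2 and fell in each (limma, adjusted p of at most 1e-04). C17orf96, listed by RefSeq as an older name of the PRC2.1 partner EPOP, rose in all lines, by 1.24, 0.91 and 0.79 (adjusted p of at most 9.6e-09), from 1751 ± 149 to 4125 ± 34.9 normalized counts in WT. LCOR rose by 0.44, 0.24 and 0.42 (adjusted p of at most 0.035), and LCORL changed by -0.68, -0.23 and -0.39, of which the value in E1 did not pass (adjusted p 0.055). CXorf67, an older name of the PRC2 inhibitor EZHIP, had 4 reads in E1 DMSO replicate 2 and 0 in the other libraries. JARID2-AS1 had 0 reads in all DMSO libraries and 2 to 5 in those with tazemetostat, and since strand use in the counting is not given in the sources used here, its reads cannot be told apart from those of JARID2.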

How the data were processed

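RNA from 18 cultures was poly(A)-selected and sequenced as paired 50-base reads from a stranded kit, per the labels' protocols. The deposited table holds a signal for 55765 gene symbols, gene counts that the authors divided by a size factor. Tools named in the submitters' processing notes, with no role or order, are Trim Galore 0.4.4, STAR 2.6.0a, HTSeq and DESeq2, with genome build hg19. Strand setting and annotation are not given in the sources used here. Whole reads were recovered for 100% of values (tolerance 1e-04), with factors of 0.812 to 1.145. Without molecular identifiers, a floor of 3 reads covers counting error alone.

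All samples entered 1 limma 3.58.1 fit (R 4.3.3; lmFit, eBayes with trend) of log2(value + 1) over 6 group means, for 16154 genes with a mean of at least 10. Fold changes on that scale understate those of low genes. A gene was called at a Benjamini-Hochberg adjusted p under 0.05, over all tested genes within each of 11 contrasts, and a log2 change of at least 1 in size; passing without the fold limit is named as such. P-values measure the spread between these biological replicates of 1 line each. The limma fit was also run on simulated counts with the same dispersion for every gene, which cannot give its error rates in these data.

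edgeR 4.0.16 (quasi-likelihood, TMM) on the recovered reads called 3466 genes in WT, 2458 in E1 and 2782 in F2 with tazemetostat, with the same numbers of members as limma, and DESeq2 1.42.0 served as a further alternative. Other alternatives were pseudocounts, filters, scalings, fits of only the compared groups, a replicate block and leaving out each library. Chosen after seeing the data were the reads of SUZ12P added to SUZ12 and the neighbours of JARID2. Of the ratios only that of EZH2 to EZH1 was in the plan, and the shares per length were not. The main fit treated no libraries as paired. The correlation of deviations between same-numbered libraries was over 0.1 in every pair only for F2 against WT in DMSO (0.182, 0.108 and 0.375). There the block changed no call.

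Named were all members, the PRC2-associated genes and copies listed by name, and the 5 genes most like each of EZH2, EZH1, SUZ12 and EED among those with a mean of at least 50. The members and gene lists were chosen with earlier results of these data known. Per-length values used the union of exons in GENCODE release 29. Promoters came from RefSeq. Plots used Python 3.11.15 with matplotlib 3.10.9.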

Additional observations from a re-analysis of the deposited data

Results flagged for a closer look

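5 response differences between WT and a clone passed both limits in the test of the difference itself (limma, adjusted p under 0.05 and at least 2-fold). For EZH2 the log2 change with tazemetostat was higher than in WT by 1.42 in E1 and 1.22 in F2. For PHF19 it was higher by 1.14 in F2. For JARID2 it was higher by 1.21 in E1 and differed by -1.03 in F2, so that the clones lay on opposite sides of WT, following their DMSO levels of 45.3 ± 9.75 and 218 ± 19.3 normalized counts against 102 ± 8.76 in WT (SD, n = 3). Both clones share the WT libraries in these values. No explanation was tested.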

How the results depend on the processing

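No member that passed the adjusted p changed direction under any alternative run. Without the fold change limit the members called numbered 10 in WT, 6 in E1 and 5 in F2 with tazemetostat, 3 for E1 and 3 for F2 against WT in DMSO, 7 and 7 against WT under tazemetostat, 2 and 2 for E1 against F2 in DMSO and under tazemetostat, and 7 and 7 in the response differences of E1 and F2. Leaving out 1 library in turn left these counts, with the fold limit, as they were except for the response difference of F2, which ranged from 2 to 3. The log2 change of the EZH2 to EZH1 ratio then ranged from -1.84 to -1.73 in WT, -0.38 to -0.26 in E1 and -0.34 to -0.24 in F2.

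When the replicate number was added as a block, the numbers of members called were the same in all 11 comparisons (3 in WT, 1 in E1 and 1 in F2 with tazemetostat). At the adjusted p alone the block lost EED in E1 (0.051) and between the clones in DMSO (0.053), and SUZ12 in the response difference of E1 (0.059). Apart from F2 against WT in DMSO, no comparison had a correlation over 0.1 in every pair of same-numbered libraries. All 3 correlations were nonetheless above 0 for tazemetostat in WT (0.096, 0.05 and 0.315). The same held for the response difference of F2 (0.13, 0.017 and 0.233), where each value is a mean over all pairs of its groups.

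Equal totals took EED in WT to -1.04 and PHF19 in the response difference of E1 to 1.00, both past 2-fold. They also shifted the median of all genes by more than 0.1 for F2 against WT under tazemetostat (to 0.14) and for its response difference (to 0.13). Some small changes passed close to the limit (limma, adjusted p 0.04, 0.041 and 0.045). They were PHF19 in E1 DMSO against WT, EED between the clones in DMSO and RBBP7 in the response difference of F2. Leaving out 1 library ended these passes in 5 of 6, 5 of 6 and 10 of 12 fits (adjusted p up to 0.14, 0.16 and 0.11).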

Other observations

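The genes beside JARID2 in RefSeq order were examined after its values were seen. MYLIP, which encodes a ubiquitin ligase that acts on lipoprotein receptors and lies second after JARID2, rose with tazemetostat in each line, as JARID2 did. Its libraries averaged 20.3 ± 3.26 normalized counts in untreated and 447 ± 42.1 in treated WT cells, 5.04 ± 2.45 and 279 ± 24.2 in E1, and 48.8 ± 2.28 and 502 ± 26.6 in F2 (SD, n = 3). As with JARID2, E1 was lowest and F2 highest without the drug. With the drug MYLIP was lower in E1 than in WT by -0.68 and than in F2 by -0.85 (limma, adjusted p 0.011 and 0.0043), whereas no such difference in JARID2 passed. The log2 changes of MYLIP with tazemetostat were 4.401, 5.61 and 3.34 (limma, adjusted p of at most 8.3e-11).

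DTNBP1, which lies between both genes, changed by 0.10 in WT (limma adjusted p 0.31), 0.51 in E1 and 0.62 in F2 (adjusted p of at most 6.6e-05). On the other side CD83, an immune receptor gene, averaged 109.8 normalized counts in untreated and 344 in treated WT cells, 539 and 672 in E1, and 99.1 and 617 in F2. RNF182 averaged 141 and 692 in WT, 1674 and 1056 in E1, and 0.404 and 417 in F2, so that it was lower with tazemetostat in E1 and higher in WT and F2. In F2 with DMSO it had 1 read in replicate 3 and 0 in the other libraries, under the floor of 3 reads. The neighbours thus did not share 1 order of the lines in DMSO.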
